A study of Homo sapiens with 9 samples.

Results

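The 32 genes described here are established transcriptional targets of the tumour suppressor p53. They were taken by name from the count table of an RNA sequencing experiment on HEK293T cells, in which 58734 Ensembl genes were counted. Of the 32 genes, 31 had enough counts to be tested, among 16686 genes tested in all. CDKN1A, the best known target of p53, was not among them. HEK293T is an established human embryonic kidney line. All 3 groups were transfected for 36 h with 10 nM of a Silencer Select siRNA using Lipofectamine RNAiMAX. The groups were control siRNA, an siRNA against SIN3A (titled Sin3A RNAi knockdown) and an siRNA against SIN3B (titled Sin3B RNAi knockdown), with 3 libraries in each. The sample titles gave the groups, since the treatment field names control siRNA at the end for all 9 samples. All values come from 1 cell line, and the sequences of the siRNAs are not given in the sources used here.

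p53 is a transcription factor that is held at a low level by the ubiquitin ligase MDM2 and its partner MDM4, and that is stabilised after DNA damage and other stress. Its targets arrest the cell cycle, promote or restrain cell death, repair DNA, adjust metabolism and, in the case of MDM2, PPM1D and CCNG1, feed back on p53 itself. HEK293T cells carry adenoviral E1 genes and the SV40 large T antigen, viral proteins that bind p53 and impair its function. SIN3A and SIN3B are related scaffold proteins that bring the histone deacetylases HDAC1 and HDAC2 to genes, and SIN3A has been described as a partner of p53 in repression.

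Libraries held 22542798 to 27084884 counts. At least 98.0% of the nonzero counts in each library were multiples of 4, for a reason not known. The library totals may thus overstate the number of independent reads. The floor was set at 3 such steps, or 12 counts, which is 0.442 to 0.552 CPM (TMM-scaled counts for each 1000000 counted) and covers counting error only. SIN3A mRNA was left at 32.5% of control in its own knockdown, and SIN3B mRNA at 57.3% in its own. Spread between libraries of a group was measured on counts divided by 4, as chi-square divided by its degrees of freedom. The SIN3A knockdown libraries lay further apart from each other (3.77 to 7.97) than the control (1.61 to 1.93) and SIN3B knockdown libraries (1.46 to 2.07). The 6 genes listed as markers of HEK293-type cells were all detected. They summed to 1301 to 1422 CPM in control, 1101 to 1328 CPM in SIN3A knockdown and 992 to 1058 CPM in SIN3B knockdown libraries. At an edgeR adjusted p of at most 0.05, 2 of the 6 were lower with SIN3A siRNA (10.8% of all genes were). With SIN3B siRNA 3 were lower (11.6% of all genes), and 0 were higher in either knockdown. Marker genes of haematopoietic, squamous and hepatocyte cells summed to at most 7.73, 1.59 and 0.94 CPM in any library, with PTPRC, CD3E, DSG3, KRT6A, TTR and FGB at 0. Fibroblast markers summed to 24.2 to 25.6 CPM in control, 24.8 to 35.2 CPM in SIN3A knockdown and 23.7 to 28.7 CPM in SIN3B knockdown libraries, nearly all of it COL1A1, while COL1A2 and DCN were at 0. Whether replicates were separate cultures or transfections is not stated in the labels, so the p-values reflect the spread of these 9 libraries, and that spread may be technical. In bulk RNA, fewer cells with a transcript and less of it per cell cannot be told apart.

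Genes of growth arrest, cell death and metabolism were among the p53 targets that rose with SIN3A siRNA, and fewer targets passed the test with SIN3B siRNA. With SIN3A siRNA, 18 of the 31 tested targets rose, where 12.2% of all genes tested did, and 2 fell, PMAIP1 and PERP, where 10.8% of all genes did (edgeR quasi-likelihood test, adjusted p at most 0.05 over all genes). The other 11 were not called. The targets were chosen with earlier results of these data known, so their shares beside those of all genes are a description and no independent evidence. The median log2 fold change of the 31 was 0.40, and 26 of them were above zero, against a median of -0.002 and 49.9% above zero for all genes tested. With SIN3B siRNA, 8 targets rose, where 12.0% of all genes did, and 1 fell, PERP, where 11.6% of all genes did. The median there was 0.17, against -0.02 for all genes, and 22 targets were above zero. Upper-quartile scaling turned the balance of all calls: with it, 36.9% of the calls over all genes were rises for SIN3A and 42.5% for SIN3B, and 16 targets rose and 3 fell with SIN3A siRNA while 8 rose and 1 fell with SIN3B siRNA.

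The direct comparison of the knockdowns tests whether their effects differ. There, 8 targets were higher with SIN3A siRNA than with SIN3B siRNA, where 14.5% of all genes were, and 3 were lower, where 12.6% were. The 8 were BAX, BTG2, TP53INP1, FDXR, PHLDA3, RPS27L, AEN and PERP. The 3 were PMAIP1, MDM2 and CCNG1. The remaining 20 were not called different. Both knockdowns were set against the same 3 control libraries, so their values are given side by side below.

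**Figure D1:**
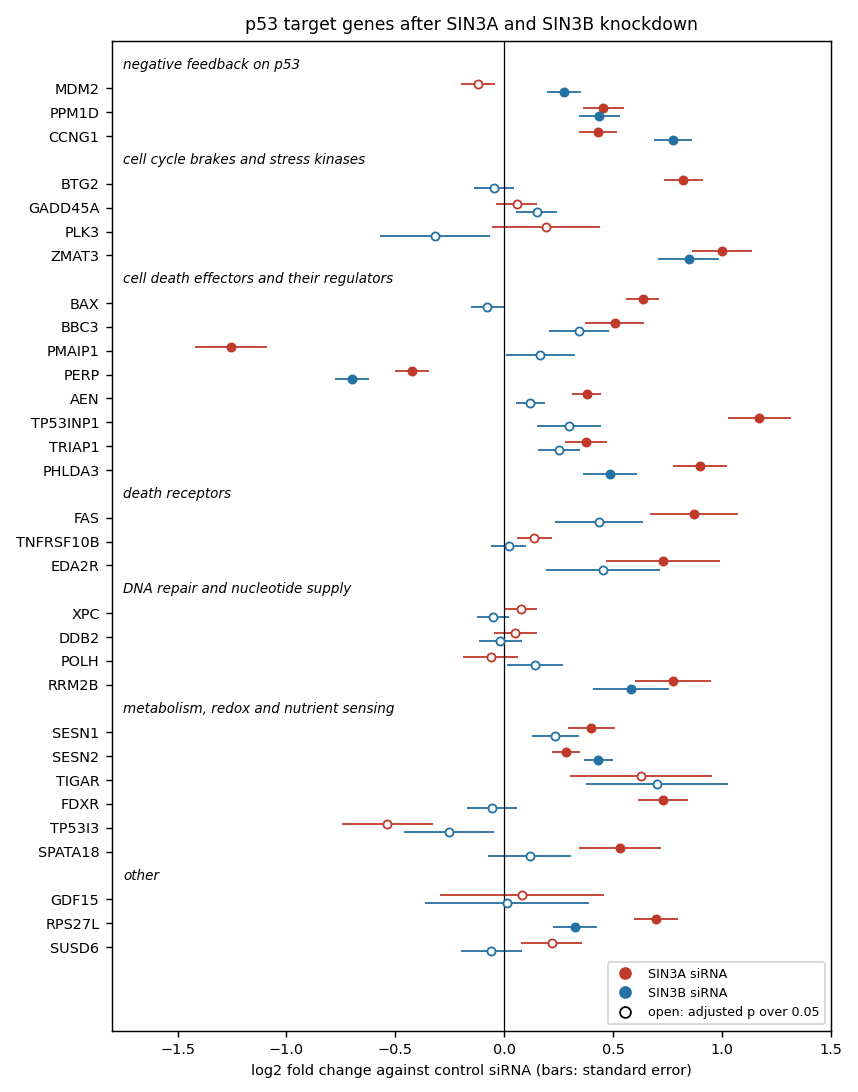
Log2 fold change against control siRNA (horizontal axis, with its standard error) of the 31 tested targets grouped by role, for SIN3A (red) and SIN3B (blue) siRNA; open symbols did not pass the test. With SIN3A siRNA, 18 filled points lie to the right of zero and those of PMAIP1 and PERP to the left, and with SIN3B siRNA 8 lie to the right and PERP to the left.

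The median over the 31 targets of the log2 ratio to the control mean (CPM plus 0.5) was 0.29, 0.33 and 0.41 in the SIN3A knockdown libraries and 0.15, 0.17 and 0.22 in the SIN3B knockdown libraries. Control libraries were at -0.01, -0.04 and 0.04 on this scale. Between 24 and 26 targets lay above the control mean in each SIN3A knockdown library, and 22 or 23 in each SIN3B knockdown library. In the control libraries 15, 10 and 22 did, so control replicate 3 had as many as replicates 1 and 3 of the SIN3B knockdown. The median over all tested genes stayed between -0.01 and 0.01 in every library.

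**Figure D2:**
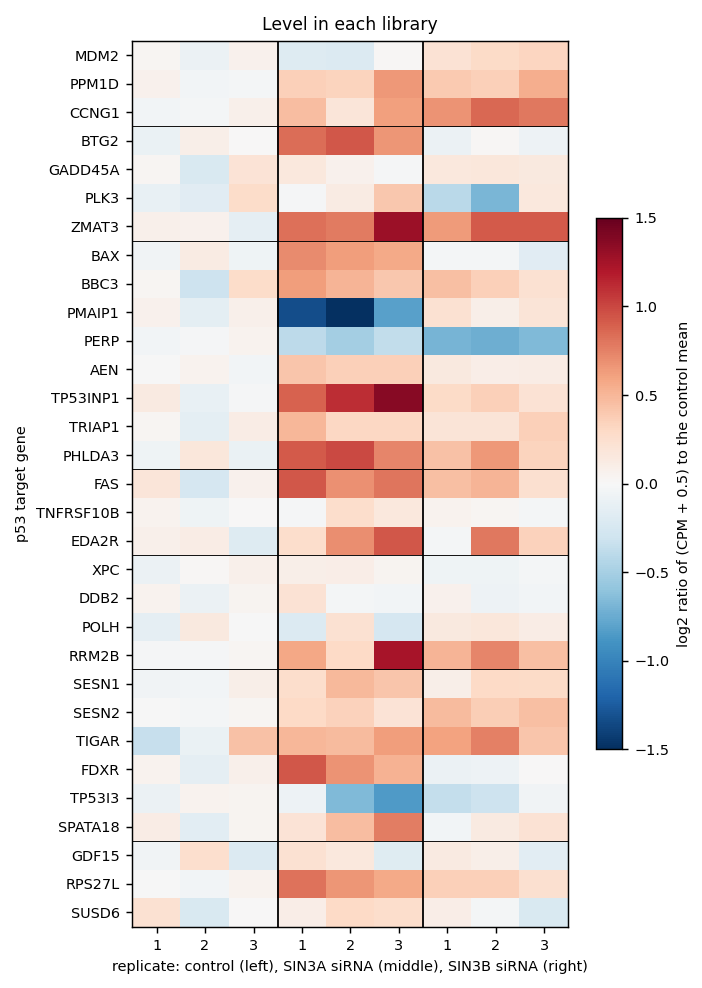
Log2 ratio of CPM plus 0.5 to the control mean for each tested target (rows, in order of role) in each of the 9 libraries (columns); red is above the control mean and blue below. PMAIP1 is darkest blue in the 3 SIN3A knockdown libraries, PERP is blue in all 6 knockdown libraries, and the RRM2B value of SIN3A knockdown replicate 3 stands above those of replicates 1 and 2.

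The 3 feedback genes moved differently from each other. MDM2, the ubiquitin ligase that degrades p53, was at 100.4, 92.7 and 103 CPM in control libraries. It was at 86.5, 85.8 and 100.3 CPM with SIN3A siRNA and at 115, 121 and 123 CPM with SIN3B siRNA. The SIN3B knockdown libraries were thus all above the controls, while the SIN3A knockdown libraries overlapped them. The log2 fold change of MDM2 was 0.27 ± 0.08 for SIN3B (SE, edgeR adjusted p = 0.0133) and -0.12 ± 0.08 for SIN3A (edgeR adjusted p = 0.289), and the direct difference was -0.40 ± 0.08 (edgeR adjusted p = 0.000697). The rise with SIN3B siRNA did not pass in 6 of 18 alternatives, among them offsets for exon length and GC content, where it was 0.15 (edgeR adjusted p = 0.0869). With the same offsets MDM2 was called lower with SIN3A siRNA (-0.18, edgeR adjusted p = 0.039). MDM2 overlaps the carboxypeptidase M gene on the opposite strand. That gene rose by 0.66 ± 0.22 with SIN3B siRNA (edgeR adjusted p = 0.0337), and whether reads were counted by strand is not given in the sources used here, so their reads may not be fully separated.

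PPM1D, the phosphatase WIP1 that removes activating phosphates from p53 and its kinases, rose with both siRNAs. Its levels were 47.8, 44.1 and 44.8 CPM in control libraries, 58.3, 57.4 and 71.8 CPM with SIN3A siRNA and 60.1, 58.7 and 66.4 CPM with SIN3B siRNA. Every knockdown library was above every control, and the knockdowns overlapped each other. The log2 fold changes were 0.46 ± 0.10 (SIN3A, edgeR adjusted p = 0.00199) and 0.44 ± 0.10 (SIN3B, edgeR adjusted p = 0.00229), and the direct difference of 0.02 had a 95% interval of -0.17 to 0.20. CCNG1, cyclin G1, which recruits a phosphatase to MDM2, was at 149, 151 and 162 CPM in control libraries, 213, 175 and 235 CPM with SIN3A siRNA and 246, 279 and 267 CPM with SIN3B siRNA. The 3 groups did not overlap, and SIN3B knockdown libraries were the highest. CCNG1 rose by 0.43 ± 0.09 (SIN3A, edgeR adjusted p = 0.0015) and by 0.78 ± 0.09 (SIN3B, edgeR adjusted p = 3.12e-06), and it was lower with SIN3A than with SIN3B siRNA by a log2 difference of -0.35 ± 0.09 (edgeR adjusted p = 0.00497). With offsets for exon length and GC content these rises were 0.27 and 0.50, each still called.

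Among the genes that slow the cell cycle, BTG2 separated the knockdowns. BTG2 is an antiproliferative protein that promotes removal of mRNA poly-A tails. It was at 42.8, 48.7 and 45.8 CPM in control libraries, 82.2, 87.6 and 72.9 CPM with SIN3A siRNA and 43.0, 46.4 and 43.4 CPM with SIN3B siRNA. All SIN3A knockdown libraries lay above the other 6, which overlapped. BTG2 rose by 0.82 ± 0.09 with SIN3A siRNA (edgeR adjusted p = 2.86e-06), was at -0.05 ± 0.09 with SIN3B siRNA (edgeR adjusted p = 0.775) and differed between the knockdowns by 0.87 ± 0.09 (edgeR adjusted p = 5.21e-07). CDKN1A, the p21 kinase inhibitor named above as left out, went 0.87 up with SIN3A siRNA and -0.66 with SIN3B siRNA on the same scale.

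ZMAT3, an RNA-binding zinc finger protein that acts in growth suppression, rose with both siRNAs. Its control libraries were at 16.4, 16.3 and 14.0 CPM, the SIN3A knockdown libraries at 28.0, 26.9 and 38.5 CPM and the SIN3B knockdown libraries at 24.5, 29.8 and 29.8 CPM. No knockdown library overlapped the controls. The log2 fold changes were 1.00 ± 0.14 (SIN3A, edgeR adjusted p = 4.4e-05) and 0.85 ± 0.14 (SIN3B, edgeR adjusted p = 0.000191), with a direct difference of 0.15 ± 0.13 (edgeR adjusted p = 0.444). GADD45A, a stress protein that inhibits the CDK1 kinase, and PLK3, a stress-activated kinase, were not called in any comparison of the 9 libraries. GADD45A was at 0.06 ± 0.09 with SIN3A siRNA and 0.15 ± 0.09 with SIN3B siRNA. PLK3 was at 0.19 ± 0.25 and -0.32 ± 0.25, and without SIN3B knockdown replicate 3 it was called higher in the direct comparison (0.82, edgeR adjusted p = 0.0357).

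All 8 cell death genes were called with SIN3A siRNA, 6 of them higher, where 12.2% of all genes tested rose and 10.8% fell. BAX, which permeabilises the outer mitochondrial membrane, was at 94.6, 107 and 93.8 CPM in control libraries, 160.3, 152 and 146 CPM with SIN3A siRNA and 96.4, 96.0 and 86.9 CPM with SIN3B siRNA. The SIN3A knockdown libraries stood clear of the other 6. BAX rose by 0.64 ± 0.08 with SIN3A siRNA (edgeR adjusted p = 7.29e-06), was at -0.08 ± 0.08 with SIN3B siRNA (edgeR adjusted p = 0.519) and differed by 0.71 ± 0.08 between them (edgeR adjusted p = 6.82e-07). BBC3, which encodes the BH3-only protein PUMA, was at 19.1, 15.03 and 22.8 CPM in control, 29.1, 26.9 and 24.9 CPM with SIN3A siRNA and 25.9, 24.2 and 22.1 CPM with SIN3B siRNA. Only the SIN3A knockdown libraries of BBC3 were all above the controls. It rose by 0.51 ± 0.14 there (edgeR adjusted p = 0.0102), a call lost without control replicate 2 (0.36, edgeR adjusted p = 0.0794), and was at 0.34 ± 0.14 with SIN3B siRNA (edgeR adjusted p = 0.0742), a value called higher in 4 alternatives, among them the offsets (0.57, edgeR adjusted p = 0.00156) and leaving out control replicate 3 (0.50, edgeR adjusted p = 0.0215).

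PMAIP1, which encodes the BH3-only protein NOXA, fell with SIN3A siRNA, against the direction of BAX and BBC3. Its control libraries were at 104, 89.9 and 105 CPM and the SIN3A knockdown libraries at 39.2, 29.6 and 56.6 CPM. The SIN3B knockdown libraries were at 116, 106 and 114 CPM. Each SIN3A knockdown library was far under the other 6, and these 3 were also spread widely among themselves. The log2 fold change was -1.26 ± 0.16 for SIN3A (edgeR adjusted p = 0.000113), 0.17 ± 0.16 for SIN3B (edgeR adjusted p = 0.523) and -1.42 ± 0.16 in the direct comparison (edgeR adjusted p = 1.91e-05). PMAIP1 lies on chromosome 18 (59899948 to 59904306, plus strand of GRCh38).

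PERP, a tetraspan membrane protein of desmosomes that also acts in cell death, fell with both siRNAs. It was at 80.3, 81.6 and 85.3 CPM in control libraries, 62.7, 57.9 and 63.5 CPM with SIN3A siRNA and 50.8, 49.5 and 51.7 CPM with SIN3B siRNA. The groups did not overlap, and the SIN3B knockdown libraries were the lowest. PERP fell by 0.43 on the log2 scale (SE 0.08, edgeR adjusted p = 0.000636) with SIN3A siRNA and by 0.70 (SE 0.08, edgeR adjusted p = 2.88e-06) with SIN3B siRNA, and the direct difference was 0.28 ± 0.08 (edgeR adjusted p = 0.0121), which did not pass without SIN3B knockdown replicate 2 (0.26, edgeR adjusted p = 0.0573). PERP lies on chromosome 6 (138088505 to 138107511, minus strand of GRCh38).

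The 2 targets that fell with SIN3A siRNA, PMAIP1 and PERP, held a 7-base sequence picked from these same data, as did TP53INP1, which rose. An earlier analysis of these data found 7-base sequences whose presence in a 3′ UTR went with lower values: GGTCTAA or AGGTCTA for the SIN3A knockdown and ACAGCCT or CAGCCTT for the SIN3B knockdown. These were searched on the transcript strand of the annotated 3′ UTRs (GENCODE 29) of 13393 genes, where the sequences of a pair can overlap. The pair for SIN3A stood in 8.67% of these genes, in 16.7% of those that fell and in 6.28% of those that rose with SIN3A siRNA. As the pairs were found on these libraries, those shares are no independent evidence. Among the 31 tested targets, 3 held it (9.68%, near the 8.67% of all searched genes): PMAIP1 (1 copy), PERP (1 copy) and TP53INP1 (2 copies). TP53INP1 had the largest rise of the 31, at 1.17. The copies in the fallen genes are shown with 9 bases on each side, 5′ to 3′ on the transcript strand, with the 7-base sequence in capitals; that of PMAIP1 is at chr18:59904227-59904233 and that of PERP at chr6:138091235-138091241.
PMAIP1: ggtatttatGGTCTAAtttgtattt
PERP: gatggactgGGTCTAAtttatcatg
The pair for SIN3B stood in 28.2% of all searched genes, in 41.9% of those that fell and in 22.4% of those that rose with SIN3B siRNA. It stood in 12 of the 31 targets, or 38.7%. These included PERP, the target that fell, 3 of the 8 that rose (MDM2, RRM2B and RPS27L) and 8 of the 22 not called. The searched 3′ UTRs of the targets were longer, at a median of 1858 bases against 1381 for all searched genes. The shares of targets and of all genes are thus not set at equal length. PERP held 4 sites, shown with the matching bases in capitals; the last holds both sequences in overlap, and all are on the minus strand, from chr6:138091148-138091154 to chr6:138089345-138089352.
PERP site 1: gccactaaaACAGCCTcaggagaat
PERP site 2: tttcccatcCAGCCTTcttcccctc
PERP site 3: tgcttccttCAGCCTTgttctagta
PERP site 4: acaagttcaACAGCCTTtcctttttt
The part of these sequences in the falls of PMAIP1 and PERP was not tested.

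TP53INP1, a nuclear protein that acts in p53 phosphorylation and autophagy, had the highest log2 fold change of the 31 with SIN3A siRNA. Its control libraries were at 10.8, 9.08 and 9.66 CPM, the SIN3A knockdown libraries at 18.6, 21.8 and 26.2 CPM and the SIN3B knockdown libraries at 12.1, 12.7 and 11.5 CPM. The SIN3A knockdown libraries stood above all others, and the SIN3B knockdown libraries were just above the controls. TP53INP1 rose by 1.17 ± 0.14 with SIN3A siRNA (edgeR adjusted p = 1.25e-05), was at 0.30 ± 0.15 with SIN3B siRNA (edgeR adjusted p = 0.161) and differed by 0.87 ± 0.14 between the knockdowns (edgeR adjusted p = 0.000112). PHLDA3, an inhibitor of AKT at the membrane, was at 16.2, 19.3 and 15.8 CPM in control, 32.6, 34.4 and 28.7 CPM with SIN3A siRNA and 23.3, 27.0 and 21.6 CPM with SIN3B siRNA. The 3 groups of PHLDA3 values did not overlap, with SIN3A knockdown the highest. PHLDA3 rose by 0.90 ± 0.12 (SIN3A, edgeR adjusted p = 3.96e-05) and 0.49 ± 0.12 (SIN3B, edgeR adjusted p = 0.00681), with a direct difference of 0.41 ± 0.12 (edgeR adjusted p = 0.0149). That difference did not pass in 3 of 19 alternatives. These were the length and GC offsets (0.27, edgeR adjusted p = 0.0734), leaving out SIN3A knockdown replicate 2 (0.35, edgeR adjusted p = 0.0669) and leaving out SIN3B knockdown replicate 3 (0.34, edgeR adjusted p = 0.0881). Without SIN3B knockdown replicate 2, the PHLDA3 rise with SIN3B siRNA did not pass either (0.39, edgeR adjusted p = 0.0594).

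AEN, an exonuclease that degrades DNA in dying cells, rose by 0.38 ± 0.07 with SIN3A siRNA (edgeR adjusted p = 0.000466), from 97.9 ± 3.1 to 127 ± 3.3 CPM (SD, n = 3), and was at 106 ± 1.8 CPM with SIN3B siRNA (0.12 ± 0.07, edgeR adjusted p = 0.223). TRIAP1, which restrains apoptosis, rose by 0.38 ± 0.10 with SIN3A siRNA (edgeR adjusted p = 0.00812) and was at 0.25 ± 0.10 with SIN3B siRNA (edgeR adjusted p = 0.0652). Its call was lost without control replicate 2 (0.30, edgeR adjusted p = 0.062) and in limma on log2 FPKM. AEN was the 1 target, of the 26 searched, whose promoter held a site of the p53 type. RefSeq promoters (GRCh38.p14, 250 bases before to 50 after the start) were found for 26 of the 32 targets and searched for the p53 consensus, a pair of decamers that reads the same on both strands, with the core bases kept, at most 2 other mismatches and a spacer of at most 1 base. No promoter was at hand for GADD45A, PHLDA3, RRM2B, TNFRSF10A, TNFRSF10B and TP53INP1, which were not searched. A match stood in 0.252% of 15843 promoters. The AEN match lies at chr15:88621306-88621325 on the plus strand, 34 to 15 bases before the start, and is shown 5′ to 3′ with the core bases of each decamer in capitals.
AEN: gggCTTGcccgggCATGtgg
No match in a window says only that these letters are not in those 300 bases.

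**Figure D3:**
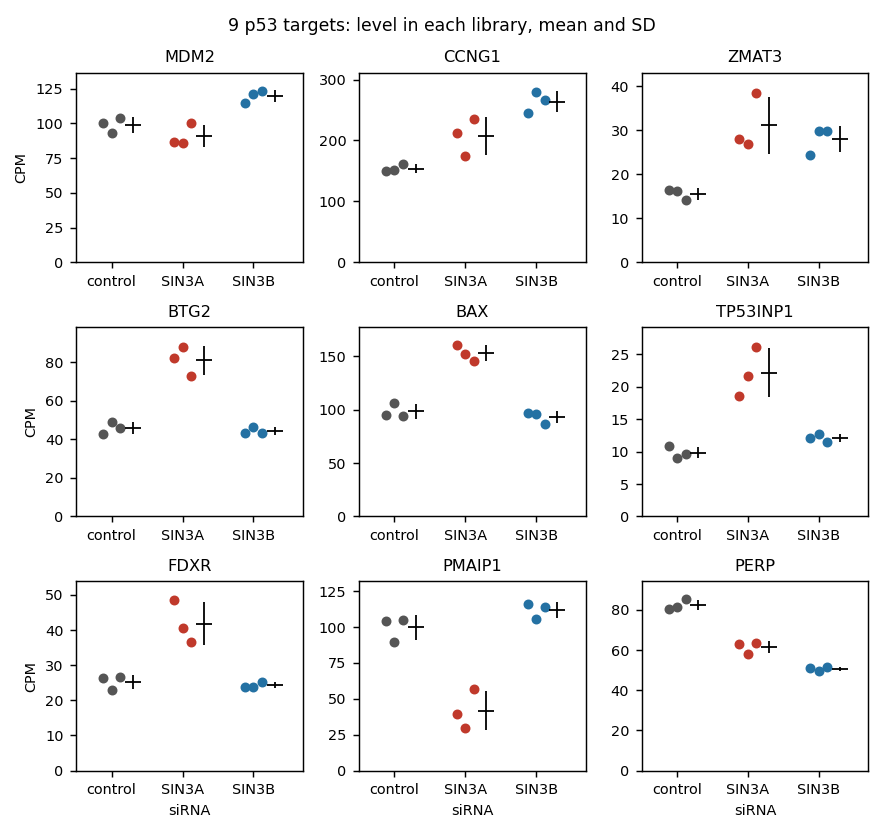
CPM in each library (points) with the mean and SD of 3 libraries (black bars) for 9 targets, by siRNA. BTG2, BAX, TP53INP1 and FDXR are high in SIN3A knockdown libraries alone, PMAIP1 is low there alone, CCNG1 and MDM2 are highest in SIN3B knockdown libraries, ZMAT3 is high in both and PERP is low in both.

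Of the 4 death receptor genes, FAS and EDA2R rose with SIN3A siRNA, where 12.2% of all genes tested did. With SIN3B siRNA edgeR called 0 of them, as did DESeq2 and limma, and 1 (FAS) was higher at an unadjusted p under 0.05. FAS, the receptor of FAS ligand, was at 4.61, 3.29 and 4.21 CPM in control, 8.10, 6.73 and 7.36 CPM with SIN3A siRNA and 5.66, 5.90 and 4.80 CPM with SIN3B siRNA. Both knockdowns lay above the controls, the SIN3A knockdown further. FAS rose by 0.87 ± 0.20 with SIN3A siRNA (edgeR adjusted p = 0.00384) and was at 0.44 ± 0.20 with SIN3B siRNA (edgeR adjusted p = 0.135), and the direct difference of 0.44 ± 0.20 did not pass (edgeR adjusted p = 0.11), except with the offsets (0.54, edgeR adjusted p = 0.0396). FAS overlaps ACTA2 on the opposite strand, which was at 0.19 ± 0.17 with SIN3A siRNA (edgeR adjusted p = 0.492). EDA2R, a receptor of ectodysplasin A2, was at 3.50, 3.60 and 2.81 CPM in control, 4.05, 5.63 and 6.74 CPM with SIN3A siRNA and 3.21, 6.04 and 4.32 CPM with SIN3B siRNA. Its lowest SIN3A knockdown library was just above the highest control. The rise of EDA2R, 0.73 ± 0.26 (edgeR adjusted p = 0.0492), was at the threshold and was lost in 12 of 19 alternatives. TNFRSF10B, the TRAIL receptor DR5, was at 0.14 ± 0.08 and 0.02 ± 0.08 (edgeR adjusted p = 0.226 and 0.898). The length and GC offsets made the SIN3A value of TNFRSF10B a call (0.20, edgeR adjusted p = 0.0335), as did leaving out SIN3A knockdown replicate 1 (0.23, edgeR adjusted p = 0.019), and without that replicate it was also called higher in the direct comparison (0.20, edgeR adjusted p = 0.0326). TNFRSF10A, the TRAIL receptor DR4, had no count in any library, below the floor of 12 counts.

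Among the 4 repair genes, RRM2B alone was called, higher with both siRNAs, where 12.2% (SIN3A) and 12.0% (SIN3B) of all genes tested rose. RRM2B is the p53-induced subunit of ribonucleotide reductase, which supplies deoxynucleotides. It was at 19.2, 19.3 and 19.8 CPM in control, 29.3, 23.9 and 46.5 CPM with SIN3A siRNA and 28.0, 32.6 and 26.7 CPM with SIN3B siRNA. All knockdown libraries were above the controls, and SIN3A knockdown replicate 3 stood well above replicates 1 and 2. RRM2B rose by 0.77 ± 0.17 with SIN3A siRNA (edgeR adjusted p = 0.00372), which was 0.45 (edgeR adjusted p = 0.0138) without that replicate. With SIN3B siRNA RRM2B rose by 0.58 ± 0.17 (edgeR adjusted p = 0.0202), a call lost in 8 of 18 alternatives, among them the length and GC offsets (0.21, edgeR adjusted p = 0.272). XPC and DDB2, which recognise bulky DNA lesions, and POLH, the polymerase that copies past them, had log2 fold changes between -0.06 and 0.14 in both knockdowns, none called. Without SIN3A knockdown replicate 2 POLH was called lower in the direct comparison (-0.38, edgeR adjusted p = 0.0291).

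Of the 6 genes of metabolism, redox balance and nutrient sensing, 4 rose with SIN3A siRNA, where 12.2% of all genes tested did. With SIN3B siRNA 1 of the 6 rose, which is near the 12.0% of all genes for so few. FDXR, ferredoxin reductase of the mitochondrion, was at 26.2, 22.9 and 26.7 CPM in control, 48.6, 40.5 and 36.5 CPM with SIN3A siRNA and 23.7, 23.9 and 25.3 CPM with SIN3B siRNA. SIN3A knockdown libraries were all above the other 6. FDXR rose by 0.73 ± 0.11 with SIN3A siRNA (edgeR adjusted p = 0.000144), was at -0.06 ± 0.12 with SIN3B siRNA (edgeR adjusted p = 0.796) and differed by 0.78 ± 0.11 (edgeR adjusted p = 3.49e-05). The sestrins SESN1 and SESN2 hold back the growth kinase mTORC1. SESN2 was at 142, 141 and 146 CPM in control, 176, 182 and 165 CPM with SIN3A siRNA and 199.7, 184 and 195 CPM with SIN3B siRNA. The SESN2 groups did not overlap, and it rose by 0.28 ± 0.07 (SIN3A, edgeR adjusted p = 0.00392) and 0.43 ± 0.07 (SIN3B, edgeR adjusted p = 9e-05). The direct SESN2 difference of -0.15 ± 0.07 was not called (edgeR adjusted p = 0.102). SESN1 was at 23.7, 23.8 and 26.2 CPM in control, 29.6, 34.6 and 32.9 CPM with SIN3A siRNA and 26.2, 30.4 and 30.1 CPM with SIN3B siRNA. Both knockdowns of SESN1 lay above the controls, though the lowest SIN3B knockdown library and the highest control were almost equal. With SIN3A siRNA it had a rise of 0.40 ± 0.11 (edgeR adjusted p = 0.0106) that was lost without control replicate 2 (0.37, edgeR adjusted p = 0.0525).

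SPATA18, which acts in mitochondrial quality control, was at 6.52, 5.32 and 6.15 CPM in control, 6.99, 8.45 and 10.5 CPM with SIN3A siRNA and 5.82, 6.63 and 7.04 CPM with SIN3B siRNA. The lowest SIN3A knockdown library was close to the highest control. Its rise of 0.53 ± 0.19 (edgeR adjusted p = 0.0477) was lost in 13 of 19 alternatives, and without SIN3A knockdown replicate 1 SPATA18 was also higher in the direct comparison (0.55, edgeR adjusted p = 0.0367). TP53I3, a quinone oxidoreductase, was at -0.54 ± 0.21 with SIN3A siRNA (edgeR adjusted p = 0.0707) and was called lower with upper-quartile scaling (-0.60, edgeR adjusted p = 0.0433) and without SIN3A knockdown replicate 1 (-0.80, edgeR adjusted p = 0.00709). Without that replicate it was also lower in the direct comparison (-0.55, edgeR adjusted p = 0.0486). TIGAR, a phosphatase that slows glycolysis, had values of 0.63 ± 0.33 and 0.70 ± 0.33 at mean levels of 1.60 CPM in control and 2.47 CPM with SIN3A siRNA, and neither was called (edgeR adjusted p = 0.183 and 0.133). Without control replicate 3 TIGAR was called higher with SIN3B siRNA (1.04, edgeR adjusted p = 0.0493).

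Of the last 3 targets, RPS27L rose with both siRNAs. It encodes a ribosomal protein close in sequence to RPS27, so reads shared with that gene make its level uncertain. RPS27L was at 24.6, 24.1 and 25.6 CPM in control, 44.0, 39.6 and 37.1 CPM with SIN3A siRNA and 31.8, 31.8 and 29.5 CPM with SIN3B siRNA. The 3 groups did not overlap. The rises of RPS27L were 0.70 ± 0.10 (SIN3A, edgeR adjusted p = 6.31e-05) and 0.32 ± 0.10 (SIN3B, edgeR adjusted p = 0.0231), with a direct difference of 0.37 ± 0.10 (edgeR adjusted p = 0.00782). The SIN3B rise was lost in 5 of 18 alternatives, among them the length and GC offsets (0.25, edgeR adjusted p = 0.0711). GDF15, a secreted stress cytokine, was at 1.51 ± 0.33 CPM in control libraries and 0.08 ± 0.38 and 0.01 ± 0.38 log2 units from them in the knockdowns. SUSD6, a membrane protein, was at 0.22 ± 0.14 and -0.06 ± 0.14. Neither was called.

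The number of rises with SIN3B siRNA moved with single libraries and settings. Without SIN3B knockdown replicate 2, 4 targets rose (PPM1D, CCNG1, ZMAT3 and SESN2). Without control replicate 2, 5 rose, and with the length and GC offsets the same number of the 8 rises was kept, while 3 targets that had not been called (GADD45A, BBC3 and AEN) rose. With a fit of only the 6 libraries compared, 11 rose, the 8 and BBC3, PMAIP1 and TRIAP1. With the offsets SESN2 was called lower (-0.29, edgeR adjusted p = 0.000298) and RRM2B higher (0.34, edgeR adjusted p = 0.0444) in the direct comparison.

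MDM4, which inhibits p53 together with MDM2, was at 92.8, 68.9 and 87.8 CPM in control, 44.5, 66.5 and 76.3 CPM with SIN3A siRNA and 82.8, 91.1 and 84.2 CPM with SIN3B siRNA. The SIN3A knockdown libraries of MDM4 overlapped the controls, at -0.41 ± 0.15 (edgeR adjusted p = 0.0666), a value that passed in 9 of 19 alternatives. The 3′ UTR of MDM4 held 0 copies of the SIN3A pair of 7-base sequences and 4 of the SIN3B pair. TP63, a relative of p53, had no count.

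Other genes of the pathway were read from lists put together with earlier results of these data known. Of 86 further p53 targets, 76 were tested, and with SIN3A siRNA 19 rose (25.0%, against 12.2% of all genes) and 2 fell (2.63%, against 10.8%), with a median of 0.17. With SIN3B siRNA 7 rose (9.21%, against 12.0%) and 14 fell (18.4%, against 11.6%), with a median of -0.09. In the direct comparison 28 were higher with SIN3A siRNA (36.8%, against 14.5%) and 3 lower (3.95%, against 12.6%). NADSYN1, which makes NAD (0.72 ± 0.10), the transcription factor STAT3 (0.58 ± 0.08), FAM210B, a mitochondrial protein (0.46 ± 0.09), and APAF1, the scaffold of the apoptosome (0.59 ± 0.12), had the lowest adjusted p among the rises with SIN3A siRNA. With SIN3B siRNA, the receptor kinase EPHA2 fell by 1.10, the netrin receptor UNC5B by 0.87 and the small GTPase RAP2B by 0.61, while ISCU, the scaffold of iron-sulfur clusters, rose by 0.50. UNC5B and RAP2B rose with SIN3A siRNA, by 0.44 ± 0.09 and 0.31 ± 0.10, and their direct differences were 1.31 ± 0.09 and 0.92 ± 0.10 (edgeR adjusted p = 4.15e-09 and 8.09e-07).

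Of 31 regulators of p53, 30 were tested, and with SIN3A siRNA 3 rose (10.0%, near the 12.2% of all genes) and 7 fell (23.3%, against 10.8%). With SIN3B siRNA 5 regulators rose (16.7%, against 12.0%) and 2 fell (6.67%, against 11.6%). The ubiquitin ligase COP1 (-0.56 ± 0.10), the p53 relative TP73 (-0.60 ± 0.12) and the acetyltransferase KAT5 (-0.34 ± 0.09) fell with SIN3A siRNA. With SIN3B siRNA the deubiquitinase USP7, which acts on p53 and MDM2, fell by 0.34, and BRD7 (0.31 ± 0.06), the deacetylase SIRT1 (0.47 ± 0.12) and the deubiquitinase USP10 (0.28 ± 0.07) rose. Of 15 genes of the integrated stress response, which also drives some p53 targets such as SESN2 and PMAIP1, 5 fell (33.3%, against 10.8% of all genes) and 0 rose with SIN3A siRNA by edgeR. DESeq2 called 7 lower and 0 higher, limma 4 or 3 lower by pseudocount and 0 higher, and 1 was higher and 8 were lower at an unadjusted p under 0.05. With SIN3B siRNA 1 of these rose (6.67%, against 12.0%) and 2 fell (13.3%, against 11.6%). DDIT4, an inhibitor of mTORC1 that p53 also induces, fell by 0.74 and 0.85, XBP1 fell by 0.32 and 0.36, and with SIN3A siRNA the transcription factors ATF4 and ATF3 fell by 0.22 and 0.29. SLC7A11, the cystine transporter, rose by 1.14 ± 0.19 with SIN3B siRNA. Of 16 interferon-stimulated genes, 11 were tested, and 1 fell with SIN3A siRNA (9.09%, against 10.8% of all genes), the RNA sensor RIGI (-0.59 ± 0.19). With SIN3B siRNA edgeR and DESeq2 called 0 of the interferon-stimulated genes, limma called 1 lower, and 1 was higher at an unadjusted p under 0.05. Of 13 genes of the mitochondrial genome 1 rose in each knockdown, where 12.2% (SIN3A) and 12.0% (SIN3B) of all genes did.

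**Figure D4:**
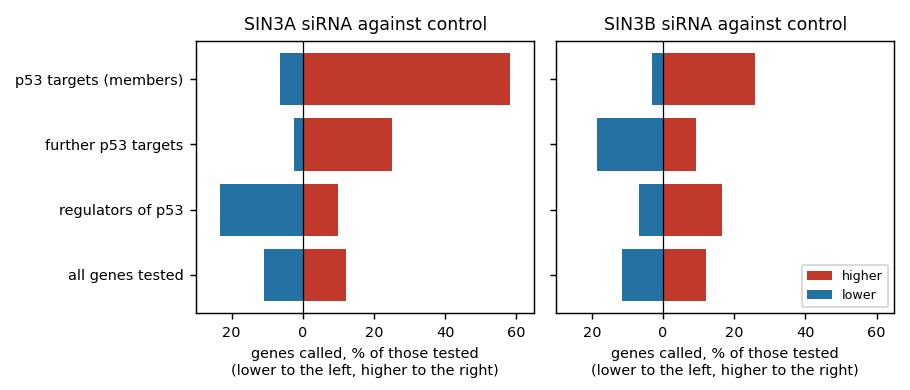
Share of tested genes called higher (to the right) or lower (to the left), in percent, for the 31 tested targets, 76 further p53 targets, 30 regulators of p53 and all 16686 genes, by siRNA. The lists of targets, further targets and regulators were chosen with earlier results of these data known. With SIN3A siRNA 58.1% of the targets and 25.0% of the further targets rose against 12.2% of all genes, and with SIN3B siRNA the shares were 25.8%, 9.21% and 12.0%; the shares that fell were 6.45%, 2.63% and 10.8% with SIN3A siRNA and 3.23%, 18.4% and 11.6% with SIN3B siRNA.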

How the data were processed

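Poly-A selected, stranded RNA was sequenced from 9 libraries. Counts per Ensembl gene were made by the authors, per the submitters' processing notes, with Trimmomatic 0.36, HISAT2 2.1.0 on GRCh38 and HTSeq; the strand setting is not given in the sources used here. The FPKM values deposited by the authors were used in alternatives alone. Counts were fitted in edgeR 4.0.16 (R 4.3.3) with TMM factors, the filterByExpr filter (minimum count 10) and the robust quasi-likelihood test, in 1 fit of 9 libraries, with two-sided Benjamini-Hochberg adjusted p over 16686 genes and a threshold of 0.05. Depth and the floor are given with the libraries above. The script was tested on simulated data. Alternatives were other scaling factors and filters, DESeq2 1.42.0, limma 3.58.1 on log2 FPKM with pseudocounts of 1 and 0.1, fits of 6 libraries, a replicate block, counts divided by 4, offsets for length and GC content, leaving out genes with the 7-base sequences or 1 library, and, chosen after seeing the data, edgeR without robust shrinkage. Members and lists were chosen with earlier results of these data known. A member called in any comparison with a log2 fold change of at least 0.4 in size is given in every library, as is MDM2, which was added after its values were seen; other genes named are SIN3A, SIN3B, CDKN1A, MDM4, neighbours, markers and up to 4 called genes of lowest adjusted p per list. 3′ UTRs are the longest annotated for each gene in GENCODE 29, and promoters come from RefSeq. One gene that this rule names is not reported here.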

Additional observations from a re-analysis of the deposited data

How the results depend on the processing

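With SIN3A siRNA, 13 to 19 targets rose under the alternatives run and 2 or 3 fell under all but 1 of them, and no called value of a target changed direction. Leaving out all genes with the 7-base sequences found in these data for the knockdown concerned removes targets by construction. With SIN3A siRNA this left 28 targets, without PMAIP1, PERP and TP53INP1, and 15 rose and 0 fell. With SIN3B siRNA it left 19 targets, without PERP, MDM2, RRM2B and RPS27L among others. Of these, 5 rose and 0 fell, and the 5 were all among the 8 rises of the main fit. In the direct comparison genes with either pair were left out, and of the 18 targets left 4 were higher and 1 lower. Upper-quartile scaling gave medians of 0.33 (SIN3A) and 0.13 (SIN3B). With SIN3B siRNA 11 targets rose in a fit of only the 6 libraries compared, and 4 to 9 rose with 1 library left out, where the median ranged from 0.16 to 0.26 for SIN3B and from 0.15 to 0.23 in the direct comparison. Values without a call that changed sign were, with SIN3A siRNA, those of DDB2 (-0.017) and GADD45A (-0.011) under upper-quartile scaling. With SIN3B siRNA, they were GDF15 (-0.024) and TNFRSF10B (-0.019) under upper-quartile scaling, GDF15 (-0.0033) without genes with the 7-base sequences, and BAX (0.10), BTG2 (0.057), DDB2 (0.10), FDXR (0.14), SUSD6 (0.067), XPC (0.077), MDM4 (-0.051) and PMAIP1 (-0.15) with offsets for length and GC content. In the direct comparison, PPM1D was at -0.012 under upper-quartile scaling and GDF15 at -0.094 with those offsets. Ranges that crossed zero with 1 library left out are GADD45A (-0.057 to 0.18), DDB2 (-0.018 to 0.098), POLH (-0.24 to 0.030) and GDF15 (-0.033 to 0.26) with SIN3A siRNA; DDB2 (-0.076 to 0.012), GDF15 (-0.11 to 0.19), SUSD6 (-0.18 to 0.064), MDM4 (-0.083 to 0.14) and TNFRSF10B (-0.024 to 0.045) with SIN3B siRNA; DDB2 (-0.0082 to 0.12), GDF15 (-0.044 to 0.22), PPM1D (-0.094 to 0.077), ZMAT3 (-0.031 to 0.25), RRM2B (-0.13 to 0.38) and TIGAR (-0.17 to 0.027) in the direct comparison. The causes were not tested.

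No pairing of samples by replicate number was seen: the correlations of deviations between same-numbered libraries were -0.265 to 0.0707, none over 0.1. Deviations from the mean of only 3 libraries depend on each other. These correlations therefore cannot settle whether samples were handled in pairs. No library correlated best with its own number. The highest values joined different numbers. SIN3A knockdown replicate 2 was at 0.320 with SIN3B knockdown replicate 1, and SIN3A knockdown replicate 3 at 0.250 with control replicate 1. SIN3B knockdown replicate 2 was at 0.224 with SIN3A knockdown replicate 3. Whether libraries of different numbers shared a batch was not tested, and no fit took it into account. With the replicate block, 16 targets rose and 2 fell with SIN3A siRNA (EDA2R and SPATA18 were no longer called), 8 rose and 1 fell with SIN3B siRNA, and 8 were higher and 3 lower in the direct comparison; the medians were 0.40, 0.17 and 0.16. Depth limits GDF15, TIGAR and TNFRSF10A, which lay within a few times the floor or below it. TIGAR also shares exon bases with another protein-coding gene on the same strand (ENSG00000285901). How reads in both genes were counted is not given in the sources used here, so the low level of TIGAR may not be due to depth alone.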
